A study of Mus musculus with 4 samples.

Results

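Fos, Fosb, Fosl2, Jun, Junb, Jund, Egr1, Ier2, Dusp1 and Atf3 are 10 genes of the AP-1 and immediate early response, and they were measured in granulocyte/monocyte progenitors (GMP) from Icsbp-deficient and wild type mice. All probe sets that carry 1 of these symbols in the platform annotation were taken: 13 probe sets in all, 11 of them on both array types and 2 on the larger array only. They represent 10 of the 18194 genes named on the larger array. Fos was the only member that passed the test, which 5.13% of all tested probe sets passed. It was higher in Icsbp-deficient GMP on both array types, at a mean log2 ratio of 1.08 ± 0.18. The call ended under some other settings, among them the fit without the filter on low signals and the fit without array type as a block. Of the other members, 5 were tested and did not pass, and 4 (Fosb, Jun, Egr1 and Atf3) had signals too low to be tested.

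Icsbp (Irf8) belongs to the interferon regulatory factors and is known to steer myeloid progenitors towards monocytes and away from granulocytes. The Icsbp-deficient group held 2 samples, 1 on the 430A array and 1 on the MOE430_2 array, each from marrow pooled from at least 8 mice. The wild type group held 2 samples, again 1 on each array type, each from marrow pooled from at least 10 mice. All animals were 10 to 16 weeks old and the GMP were purified by flow cytometry. The sources used here name neither the deleted part of Icsbp nor the strain of 3 of the samples. The wild type 430A sample carries no genotype in its label, which gives a C57/Bl6 - S129Ola mix as its strain, and the series' design text places it in the wild type group.

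AP-1 is a dimer of leucine zipper proteins in which a Fos family protein pairs with a Jun family protein, and Jun proteins can also pair with each other or with ATF proteins. Fos, Jun, Egr1, Ier2, Dusp1 and Atf3 are called immediate early genes because growth factors, cytokines and stress switch them on within minutes, without new protein synthesis, through MAP kinases acting on factors already bound at their promoters. In myeloid cells Fos, Jun and Egr1 are known for roles in monocyte and macrophage differentiation, and the same genes are known to be induced by cell isolation itself. Sort times and handling of single samples were not used here, and their part in the results was not tested.

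Signals were normalized within each array type and are on a linear scale. Each ratio sets Icsbp-deficient over wild type GMP and is the log2 of (signal + 50), ± gives its moderated standard error with n = 2 array types, and intervals are at the 95% level. The targeted gene was still read: the first Irf8 probe set had a mean log2 ratio of -0.48 ± 0.16 (adjusted p = 0.124) and the second 0.06 ± 0.12 (adjusted p = 0.832), so these probe sets do not check the labels. The GMP granule gene Mpo was read on all arrays, with 15834 and 30024 in Icsbp-deficient and 16938 and 28869 in wild type GMP, and its ratio and that of Elane were -0.02 and 0.05. Some GMP markers differed between the genotypes: of 10 tested, 2 rose, 1 fell and 7 did not pass, while 5.6% of all tested genes were called. The Fc receptor Fcgr3 rose by 1.00 ± 0.11 (limma adjusted p = 0.000773) and the myeloid factor Cebpa by 0.69 ± 0.12 (adjusted p = 0.0116). The progenitor surface protein Cd34 fell by 1.73 ± 0.13 (adjusted p = 0.000133), with 818 in Icsbp-deficient against 2623 in wild type GMP (430A arrays) and 819 against 3062 (MOE430_2 arrays). All 7 T and NK cell markers on the arrays and 5 of 8 B cell markers were under the filter on low signals. The other 3 B cell markers were higher in Icsbp-deficient GMP on both array types and did not pass, with Igll1 at 0.71 (adjusted p = 0.0972), Vpreb1 at 0.64 (adjusted p = 0.19) and Cd79b at 0.31 (adjusted p = 0.326).

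The promoter windows of the 3 tested members with the highest ratios are shown. Whether their letters bear on the ratios was not tested. They are RefSeq windows of assembly GRCm38.p6, from 250 bases before the start to 50 bases from it on, read 5′ to 3′ on the gene's strand. Fos lies at chr12:85473640-85473939 on the + strand, Fosl2 at chr5:32136222-32136521 on the + strand, and Dusp1 at chr17:26508423-26508722 on the - strand. Capitals mark the cAMP response element TGACGTCA, its core TGACGT, the TATA box TATAAA, and the core of the interferon-stimulated response element, each on either strand.
Fos: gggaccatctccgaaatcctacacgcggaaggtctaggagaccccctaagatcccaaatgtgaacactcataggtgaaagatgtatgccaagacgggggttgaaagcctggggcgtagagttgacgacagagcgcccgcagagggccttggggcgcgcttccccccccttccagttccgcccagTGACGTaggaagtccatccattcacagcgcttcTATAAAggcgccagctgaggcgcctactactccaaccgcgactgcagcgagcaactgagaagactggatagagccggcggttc
Fosl2: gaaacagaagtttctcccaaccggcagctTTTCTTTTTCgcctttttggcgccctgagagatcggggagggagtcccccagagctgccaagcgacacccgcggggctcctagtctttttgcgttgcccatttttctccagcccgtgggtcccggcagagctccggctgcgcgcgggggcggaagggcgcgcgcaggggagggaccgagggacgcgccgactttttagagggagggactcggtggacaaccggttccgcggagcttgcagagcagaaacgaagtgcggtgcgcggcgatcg
Dusp1: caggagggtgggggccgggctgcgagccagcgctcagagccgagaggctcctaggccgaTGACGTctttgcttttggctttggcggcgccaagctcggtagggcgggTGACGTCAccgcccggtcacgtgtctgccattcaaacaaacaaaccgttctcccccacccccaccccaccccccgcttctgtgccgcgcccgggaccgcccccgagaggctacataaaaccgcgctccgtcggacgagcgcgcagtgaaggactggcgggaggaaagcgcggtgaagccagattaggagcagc
The Fos window held 1 cAMP response element core at -66 to -61 and 1 TATA box at -33 to -28, counted from the start. The Dusp1 window held the core at -191 to -186 and the full palindrome at -143 to -136, which contains the core on both strands. The Fosl2 window held 1 match to the interferon-stimulated response element at -221 to -212, and it held neither the core nor TATAAA. Of all 32851 RefSeq promoter windows of this length, 7.51% held TGACGT, 1.79% held TGACGTCA, 13.6% held TATAAA and 3.44% held the interferon-stimulated response element. Windows of 8 members were searched, and the core also occurred in that of Atf3. The AP-1 site TGANTCA (7.81% of all windows), the CArG box (1.63%) and the Ets-IRF composite element (2.72%) had no match in these 8 windows. Sequence more than 250 bases before the start was not searched, so these promoters may hold such elements further upstream. A match is a description of the letters in the window, and no binding was measured here.

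Fos encodes the founding Fos family subunit, which needs a Jun partner to bind DNA. Its probe set had a signal of 625 in Icsbp-deficient GMP against 212 in wild type GMP on the 430A arrays. On the MOE430_2 arrays the signal was 543 in Icsbp-deficient GMP against 292 in wild type GMP. The Icsbp-deficient signal was thus the higher one within each array type, and signals of different array types are not on one scale. The log2 ratios were 1.36 and 0.79, and the mean of 1.08 ± 0.18 corresponds to 2.11-fold on the scale of signal + 50, which understates the ratio of the signals (limma adjusted p = 0.00879, interval 0.67 to 1.48). The spread behind this p rests on 1 residual degree of freedom per probe set and is mostly borrowed from other probe sets, and the fit called too many unchanged probe sets on simulated data, so adjusted p-values here and below may be too small. Over all 13576 tested probe sets 5.13% were called in either direction and 2.99% were called higher. Fos ranked 51 of 7822 tested genes by its ratio.

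The Fos ratio on the 430A arrays rests on the scaling of these arrays. Its deposited signals there were 211 in Icsbp-deficient and 209 in wild type GMP, while the trimmed means of the deposited signals were 167 and 498. On the MOE430_2 arrays, where the trimmed means were 159 and 160, the deposited Fos signals were 170 in Icsbp-deficient and 96.0 in wild type GMP. With the values as deposited the Fos ratio was 0.30 (adjusted p = 0.851), a setting in which the median of all probe sets was -1.29 on the 430A arrays. The call also ended without the filter on low signals (adjusted p = 0.0537) and without array type as a block (adjusted p = 0.811). It ended as well without any one of the 4 arrays in the model that has no block, where the ratio lay between 0.89 and 1.26. There 1 array of one genotype is set against 1 array of each type, so these ratios mix genotype with array type.

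Fosl2, also called Fra-2, is a Fos family member that lacks the strong activation domain of Fos. Its shared probe set had a signal of 236 in Icsbp-deficient GMP against 67.4 in wild type GMP on the 430A arrays. On the MOE430_2 arrays it had 80.7 in Icsbp-deficient and 105 in wild type GMP. The direction thus differed between the array types, with log2 ratios of 1.28 and -0.24, and the mean of 0.52 ± 0.32 did not pass (adjusted p = 0.433, interval -0.19 to 1.23). A second Fosl2 probe set, on the MOE430_2 arrays only, had a scaled signal of 550 in Icsbp-deficient and 286 in wild type GMP. Its ratio of 0.83 was opposite in sign to that of the first probe set on the same arrays, so the Fosl2 probe sets disagree. With 1 array per genotype it has no replicate check.

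Fosb, the third Fos family member on the arrays, was under the filter. It had 90.0 in Icsbp-deficient and 86.2 in wild type GMP on the 430A arrays, and 31.7 and 27.3 on the MOE430_2 arrays. The log2 ratios of 0.04 and 0.08 show the genotypes close together on each array type.

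Jun, the main partner of Fos, was read by 2 probe sets, both under the filter. The first had 11.6 in Icsbp-deficient and 22.7 in wild type GMP on the 430A arrays, and 35.7 and 40.1 on the MOE430_2 arrays. The second had 102 in Icsbp-deficient and 94.1 in wild type GMP on the 430A arrays, and 53.4 and 42.5 on the MOE430_2 arrays. The mean log2 ratios were -0.16 and 0.12, so the 2 probe sets differed in sign.

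Junb and Jund are the Jun family members that often act against Jun on shared promoters. Junb had 178 in Icsbp-deficient and 189 in wild type GMP on the 430A arrays, and 138 and 88.8 on the MOE430_2 arrays. The order of the genotypes differed between the array types, and the mean ratio of 0.18 ± 0.21 did not pass (adjusted p = 0.703, interval -0.28 to 0.65). Jund had 563 in Icsbp-deficient and 515 in wild type GMP on the 430A arrays, and 256 and 297 on the MOE430_2 arrays. Its ratio was -0.03 ± 0.16 (adjusted p = 0.943, interval -0.40 to 0.33). A second Jund probe set on the MOE430_2 arrays only had a scaled signal of 82.0 in Icsbp-deficient and 8.41 in wild type GMP, a ratio of 1.18 on the offset scale. The first Jund probe set had a ratio of -0.18 on the same arrays, so the Jund probe sets also disagree.

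Atf3, a stress-induced leucine zipper protein that can pair with Jun proteins, was under the filter. It had 10.6 in Icsbp-deficient and 8.75 in wild type GMP on the 430A arrays, and 1.57 and 10.0 on the MOE430_2 arrays. All 4 of these signals lay below the offset of 50, so its ratios of 0.04 and -0.22 are compressed by the offset.

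Egr1 encodes a zinc finger factor induced together with Fos. It was under the filter as well, with 80.0 in Icsbp-deficient and 55.2 in wild type GMP on the 430A arrays, and 34.0 and 32.9 on the MOE430_2 arrays. Its ratios were 0.31 and 0.02. When all probe sets were tested without the filter, the members that it had removed had unadjusted p-values from 0.393 to 0.784 under limma and adjusted p-values from 0.773 to 0.946.

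Ier2 is a nuclear protein of the rapid response to serum. It had 1168 in Icsbp-deficient and 1139 in wild type GMP on the 430A arrays, and 775 and 527 on the MOE430_2 arrays. Icsbp-deficient signals were higher on both array types, by log2 ratios of 0.03 and 0.51, and the mean of 0.27 ± 0.16 did not pass (adjusted p = 0.403, interval -0.08 to 0.63). Dusp1, a phosphatase that switches MAP kinases off and so limits the same response, had 118 in Icsbp-deficient and 81.8 in wild type GMP on the 430A arrays. On the MOE430_2 arrays it had 130 and 97.4. The 2 ratios of 0.35 and 0.28 were close to each other, and the mean of 0.32 ± 0.21 did not pass (adjusted p = 0.475, interval -0.15 to 0.79). The Dusp1 and Ier2 intervals hold no change as well as rises of up to 0.79 and 0.63.

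**Figure D1:**
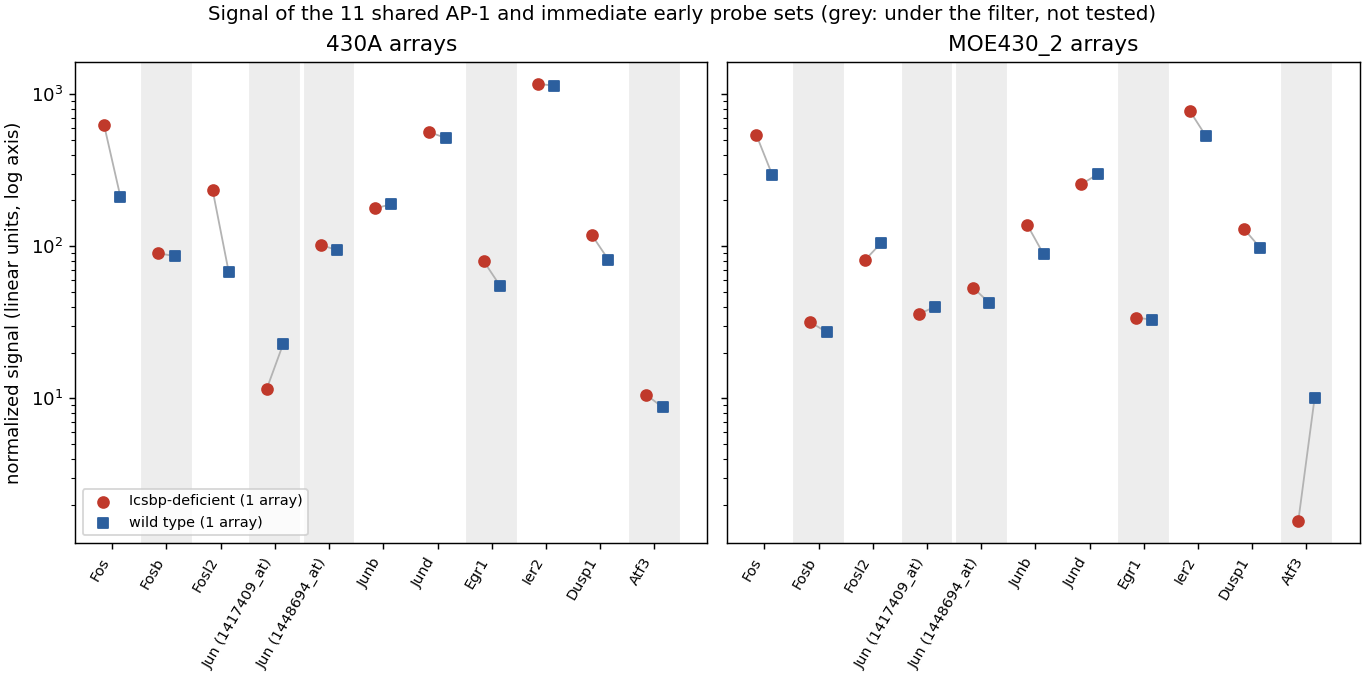
Normalized signal (log axis) of the 11 shared probe sets on the 430A arrays (left) and the MOE430_2 arrays (right), with 1 Icsbp-deficient array (red circles) and 1 wild type array (blue squares) in each panel and grey bands for probe sets under the filter. Fos is separated between the genotypes in both panels (625 against 212, and 543 against 292), while Fosl2 is separated in opposite directions.

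Of the 6 tested members, 3 were higher in Icsbp-deficient GMP on both array types (Fos, Ier2 and Dusp1) and 0 were lower on both. Over all tested probe sets 29.9% were higher and 32.9% were lower on both array types. At an unadjusted p under 0.05 limma gave 1 of the 6 tested members, which was Fos, and 2521 of all 13576 tested probe sets. After adjustment 0 members were called lower, against 2.14% of all tested probe sets. The median log2 ratio of the 6 was 0.30 (430A arrays 0.23, MOE430_2 arrays 0.36), against -0.01 over all 7822 tested genes. With the 10 genes taken without the filter the median was 0.17, and from the deposited values taken directly it was -0.33. In the model without the block it was 0.02 without the Icsbp-deficient 430A array and 0.50 without the Icsbp-deficient MOE430_2 array. It was 0.45 without the wild type 430A array and 0.08 without the wild type MOE430_2 array. Each of these fits sets 1 array of one genotype against 1 array of each type, so these medians mix genotype with array type. The 6 ratios ranged from -0.03 to 1.08.

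**Figure D2:**
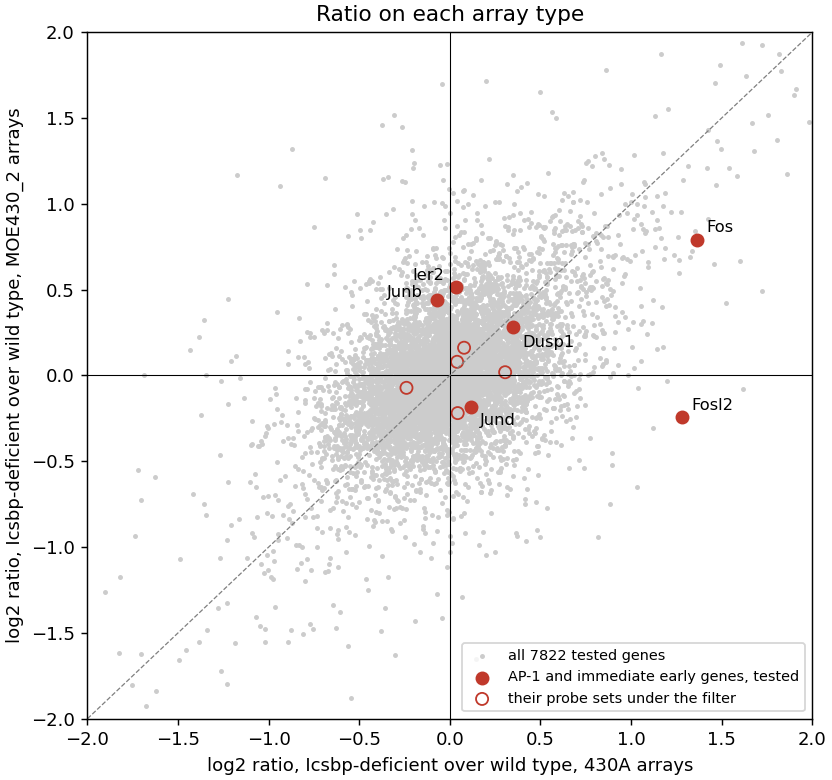
Log2 ratio of Icsbp-deficient over wild type GMP on the 430A arrays (x axis) against that on the MOE430_2 arrays (y axis) for all 7822 tested genes (grey, with 29 outside the plotted range), the 6 tested members (filled red) and the 5 member probe sets under the filter (open red). Fos lies high on both axes at 1.36 and 0.79, and Fosl2 lies high on the 430A axis only, at 1.28 and -0.24.

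The 5 tested genes whose pair of ratios was nearest to that of Fos were Fam126b, Apoe, Peli2, Mgst1 and Ndrg1, by the larger of the 2 absolute differences over 4 arrays. These differences were 0.05 for Fam126b (ratios 1.35 and 0.84) and 0.07 for Apoe (1.33 and 0.73). They were 0.10 for Peli2, the same for Mgst1, and 0.12 for Ndrg1. None of these genes is in the AP-1 or immediate early lists described here.

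The other leucine zipper genes of AP-1 and its partners gave no call. Of 20 such genes on both array types, 14 were tested and 0 passed in either direction, while 5.6% of all tested genes were called. An unadjusted p under 0.05 under limma was found for 3 of the 14, and for 1525 of all 7822 tested genes. The list's median ratio was 0.01. Atf4, which drives the amino acid response, was at -0.40 ± 0.13 (adjusted p = 0.12), Nfe2l2, the regulator of antioxidant genes, at 0.14 ± 0.13, and Atf2, a Jun partner, at 0.00 ± 0.13. Batf2, a family member without an activation domain, was under the filter and is named after its values were seen. It had 178 in Icsbp-deficient and 48.3 in wild type GMP on the 430A arrays, and 75.2 and 7.68 on the MOE430_2 arrays, with ratios of 1.21 and 1.12. Its Icsbp-deficient signal was the higher one on both array types.

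Further immediate early and early response genes moved both ways. Of 45 on both array types 25 were tested, 5 rose and 1 fell, and 12 were higher and 4 lower on both array types. Among all tested genes 3.26% were called higher, 2.34% lower, and 30.6% and 34.4% were higher and lower on both array types. The list's median ratio was 0.19 (430A arrays 0.17, MOE430_2 arrays 0.10).

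Gadd45b, a stress-induced activator of the p38 and Jnk pathways, had 1270 in Icsbp-deficient and 744 in wild type GMP on the 430A arrays, and 1461 and 641 on the MOE430_2 arrays. It rose by 0.93 ± 0.15 (adjusted p = 0.00765). Rhob, a small GTPase with immediate early induction, had 4446 in Icsbp-deficient and 2758 in wild type GMP on the 430A arrays, and 6269 and 3665 on the MOE430_2 arrays. It rose by 0.72 ± 0.11 (adjusted p = 0.0044). Both genes were higher in Icsbp-deficient GMP on each array type.

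Nfkbia, the feedback inhibitor of NF-kappaB, rose by 0.69 ± 0.13 (adjusted p = 0.0137). The inhibitors of differentiation Id2 and Id1 rose by 0.85 ± 0.20 (adjusted p = 0.0441) and 0.76 ± 0.16 (adjusted p = 0.0273). Klf4, a zinc finger factor of monocyte differentiation that also belongs to this response, fell by 2.74 ± 0.26 (adjusted p = 0.000404). It had 56.6 in Icsbp-deficient and 421 in wild type GMP on the 430A arrays, and 34.3 and 806 on the MOE430_2 arrays. The mRNA decay factor Zfp36l2 was at -0.12, the growth regulator Myc at -0.02 and the antiproliferative Btg1 at 0.43 (adjusted p = 0.0862), and these did not pass.

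The MAP kinase cascade and the ternary complex factors that act on the Fos promoter had 14 tested genes, of which 1 rose and 1 fell, with a median of 0.00. The shares called among all tested genes were 3.26% higher and 2.34% lower. Elk3, an Ets factor of the ternary complex that can repress Fos, had 1235 in Icsbp-deficient and 713 in wild type GMP on the 430A arrays, and 1127 and 789 on the MOE430_2 arrays. It rose by 0.62 ± 0.14 (adjusted p = 0.0386). Rps6ka3, the Rsk2 kinase downstream of Erk, had 662 in Icsbp-deficient and 1850 in wild type GMP on the 430A arrays, and 720 and 1195 on the MOE430_2 arrays. It fell by 1.05 ± 0.18 (adjusted p = 0.00934). The kinases Mapk14, Mapkapk2 and Map2k3 were at 0.11, 0.17 and 0.22, and these did not pass.

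Of 8 tested dual specificity phosphatases and Erk feedback inhibitors other than Dusp1, 0 rose and 1 fell, with a median of -0.15. Over all tested genes 3.26% were called higher and 2.34% lower. The gene that fell was Spred2, an inhibitor of Ras signalling, at -0.66 ± 0.15 (adjusted p = 0.0383), with 367 in Icsbp-deficient and 595 in wild type GMP on the 430A arrays, and 316 and 539 on the MOE430_2 arrays. Dusp2 at -0.27, Spry2 at 0.54 (adjusted p = 0.0875) and Dusp7 at -0.14 did not pass.

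**Figure D3:**
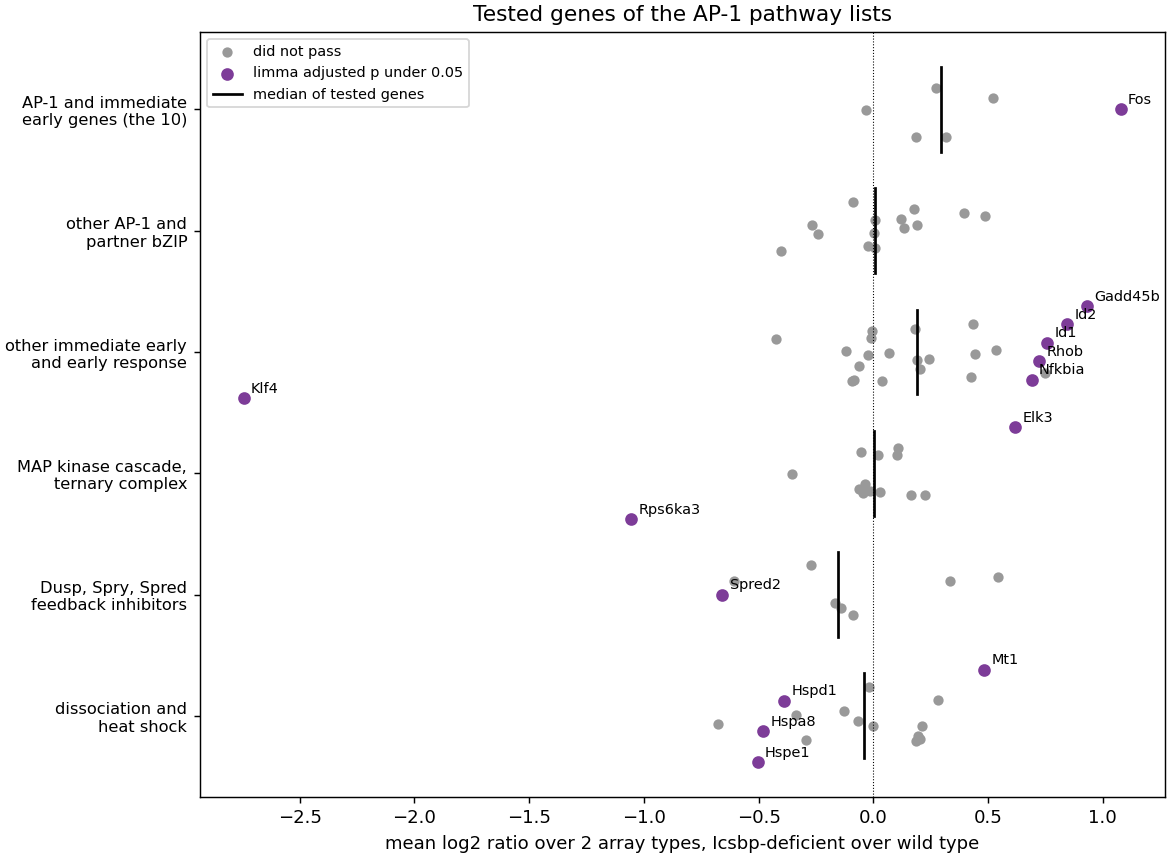
Mean log2 ratio over 2 array types for the tested genes of the 10 members (top) and 5 companion lists, with genes at a limma adjusted p under 0.05 in purple, others in grey, and a black bar at each list's median; the vertical position within a list has no meaning. Fos at 1.08 is the only purple point among the members, and the dissociation and heat shock list has 3 purple points below 0 and 1 above.

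Genes of the heat shock response and of cell dissociation were read beside Fos because cell isolation is known to induce them along with the immediate early genes. Of 16 tested genes 1 rose and 3 fell, with 5 higher and 8 lower on both array types and a median of -0.04. Among all tested genes 3.26% were called higher and 2.34% lower. On both array types 30.6% of all tested genes were higher and 34.4% were lower. The chaperones Hspa8, Hspe1 and Hspd1 fell by 0.48, 0.50 and 0.39 (adjusted p = 0.0192, 0.0446 and 0.0422), and the metallothionein Mt1 rose by 0.48 (adjusted p = 0.0382). The summed signal of the 18 genes on the arrays was 46233 in Icsbp-deficient and 55760 in wild type GMP on the 430A arrays, and 65096 and 74534 on the MOE430_2 arrays. The highest signals in these sums, on each array, were those of Hspa5, Hspa8, Hsp90aa1 and Hspd1. Genes of low signal add little to them. Inducible Hspa1b, named after its values were seen, had 178 in Icsbp-deficient and 464 in wild type GMP on the 430A arrays, against 204 and 63.0 on the MOE430_2 arrays. Its genotype order turned between the array types, with ratios of -1.17 and 1.17. The same turn was seen in Hspb1 (-0.26 and 0.66), also named after its values were seen. So were Hspa1a (-0.26 and 0.49) and Hmox1 (-0.09 and 0.47), which turned likewise and were under the filter. Among the 16 tested genes 3 had opposite signs on the 2 array types. Hspa5, Hsp90aa1 and Dnaja1 were at -0.13, -0.29 and -0.07 and did not pass.

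Markers of other cell stages differed between the genotypes as well. For comparison, 3.26% of all tested genes were called higher, 2.34% were called lower, and 34.4% were lower on both array types. The marker lists were chosen with earlier results of these data known, so these shares are no independent check of them. Of 11 tested neutrophil maturation markers 9 rose and 0 fell, led by Cd177 at 2.97 and Chil3 at 2.77, and their summed signal was 34833 in Icsbp-deficient and 11944 in wild type GMP on the 430A arrays, and 63114 and 22662 on the MOE430_2 arrays. Of 10 monocyte and macrophage markers 2 rose (Ccr2 and Cd68) and 4 fell (Ly86, Klf4, Ctss and Irf5), with summed signals of 7745 and 9852 in Icsbp-deficient GMP and 8090 and 10148 in wild type GMP. All 8 tested eosinophil, basophil and mast cell markers fell, among them Prg2 at -2.94 and Cpa3 at -2.81. All 7 tested erythroid markers were lower on both array types and 2 fell, Car1 at -2.37 and Car2 at -2.21, with a list median of -0.73. The summed signal of the 8 erythroid markers on the arrays was 3799.5 in Icsbp-deficient and 4675 in wild type GMP on the 430A arrays, and 3152 and 5423 on the MOE430_2 arrays. A change in the share of cells of one kind and a change in RNA per cell cannot be told apart in these samples, and the part of either in the Fos result was not tested.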

How the data were processed

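Each of the 4 Affymetrix arrays carried 1 preparation of pooled marrow. The deposited values are linear signal intensities; the submitters' processing notes name GCOS for the MOE430_2 type, with no settings, and name nothing for the 430A type. Per the labels' protocols the labelling kit was ENZO for the Icsbp-deficient 430A sample and one-cycle for the MOE430_2 pair, with none stated for the wild type 430A sample. A further Icsbp-deficient preparation in the design text is not analysed here.

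The 22626 shared probe sets (64 controls left out) were brought to a trimmed mean of 500 on each array (2% trimmed at each end), raised by an offset of 50, put on the log2 scale and quantile normalized within array type. The 13576 at or above the 40th percentile of mean signal were fitted with limma 3.58.1 (R 4.3.3) with array type as the block, which comes from the design text, and with a variance trend on intensity. Tests were two-sided with Benjamini-Hochberg adjustment over all 13576 at 0.05. There was 1 residual degree of freedom plus 8.9 from the prior, so the number of arrays limits the precision. Tested on simulated data, the fit recovered changed probe sets with the right sign and called more unchanged ones than the threshold states. Scaled log2 signals correlated at 0.98 and 0.979 between genotypes on 1 array type, against 0.958 and 0.959 across array types.

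Of 20380 probe sets with a single symbol, 20351 matched a RefSeq (GRCm38.p6) gene and took its symbol. A further 691 probe sets had several symbols and 1555 had none. The brightest tested probe set stands for a gene (7822 genes). Members and lists were chosen with earlier results of these data known. Named are all members, Irf8, the called genes of each AP-1 pathway list with up to 3 uncalled ones of highest signal, and the 5 genes nearest to Fos; exceptions are stated, and cell type markers are given as counts with examples chosen after their values were seen. No promoter window of Ier2 or Egr1 was used here. Alternatives were other normalizations, offsets, filters and variance models, no block, and each array left out.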

Additional observations from a re-analysis of the deposited data

How the results depend on the processing

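The 696 called probe sets fell to 0 with the values as deposited (28 at an unadjusted p under 0.05), 266 without the filter, 266 without the intensity trend and 1 with no replicate block, and leaving out 1 array in that unblocked model gave 35 to 55. With the block, leaving out an array leaves no residual degree of freedom. Without it, a fit that leaves out 1 array mixes genotype with array type, which holds for all values below given without 1 array. The 1 called member, Fos, became 0 with the values as deposited, without the filter, with no replicate block and without each array (0 in all 4 cases), and stayed 1 under the other 8 tested settings. One of these, the fit of 1 probe set per gene (577 calls), was chosen after seeing the data. At an unadjusted p under 0.05 the members' count was 0 with the values as deposited. It was 1 without the filter, where all tested probe sets gave 2976, and 1 with no replicate block, where they gave 479. The members' median ratio of 0.30 was -0.33 when deposited values were used directly (all 430A ratios then had a median of -1.29), 0.17 without the filter, which adds genes of low signal, and 0.0237 to 0.501 without 1 array. Fos stayed above 0 in all 15 tested settings, from 0.30 to 1.17, and 0.89 to 1.26 without 1 array. No other tested member was called in any setting. The array types gave 1.28 and -0.24 for Fosl2, and signals near the offset limit what can be said of Jun, Fosb, Egr1 and Atf3.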
